A study of Mus musculus with 24 samples.

Results

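The 10 secreted growth factor genes described here were vascular endothelial growth factors (Vegfa, Vegfb and Vegfc), fibroblast growth factors (Fgf2, Fgf7 and Fgf10), platelet-derived growth factors (Pdgfa and Pdgfc), hepatocyte growth factor (Hgf) and insulin-like growth factor 1 (Igf1). They were chosen by name, as a list of ligands several of which have long structured leaders and are reported to be sensitive to eIF4E, the cap-binding subunit of the translation initiation complex eIF4F. The list holds 10 of the 19661 genes named in the platform annotation, each represented here by 1 probe set. All 10 were among the 14830 genes that passed the filter on low values. The cells were mouse embryonic fibroblasts of E13.5, taken from 3 embryos with 1 intact Eif4e allele (Eif4e+/-, here Het) and 3 wild-type (WT) embryos, and each embryo gave a culture transformed with Ras and Myc and an untransformed early passage culture. The medium of all 12 cultures held 10% serum, and cells were collected while growing exponentially. Total RNA and RNA of heavy polysomes, which carry many ribosomes per mRNA, were measured in each culture. Separate arrays were used, 24 in all, in 8 groups of 3. Polysomal RNA came from cells treated with 100 µg/ml cycloheximide. The sources used here do not give how Ras and Myc were introduced or whether the transformed cultures were clonal.

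Growth factors of these families are secreted ligands that bind receptor tyrosine kinases on neighbouring cells. Fibroblasts are a main stromal source of several of them: Hgf, Fgf7 and Fgf10 act on epithelium, the VEGFs on blood and lymphatic endothelium, and the PDGFs back on fibroblasts and other mesenchymal cells. Their mRNAs are often translated under close control, and the leaders of Vegfa and Fgf2 are reported to hold internal ribosome entry sites and alternative start codons.

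The promoter windows of 4 members are shown because they cover both outcomes of the comparison of states: total RNA of Vegfc, Vegfa and Igf1 fell, while Vegfb did not pass the test. Each is the 250 bases upstream of an annotated RefSeq start on GRCm38.p6, written 5′ to 3′ on the strand of the gene. Capitals mark GC boxes (GGGCGG, either strand) and AP-1 sites (TGANTCA, either strand), and adjoining matches run together. The windows are chr17:46032378-46032627 on the minus strand for Vegfa, chr19:6987652-6987901 on the minus strand for Vegfb, chr8:54077282-54077531 on the plus strand for Vegfc and chr10:87860861-87861110 on the plus strand for Igf1, whose window lies inside the annotated gene.
Vegfa: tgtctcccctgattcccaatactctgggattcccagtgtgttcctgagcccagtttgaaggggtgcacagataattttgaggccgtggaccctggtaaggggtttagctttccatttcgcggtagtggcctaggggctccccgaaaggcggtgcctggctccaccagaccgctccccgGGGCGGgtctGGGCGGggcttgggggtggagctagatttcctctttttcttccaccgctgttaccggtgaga
Vegfb: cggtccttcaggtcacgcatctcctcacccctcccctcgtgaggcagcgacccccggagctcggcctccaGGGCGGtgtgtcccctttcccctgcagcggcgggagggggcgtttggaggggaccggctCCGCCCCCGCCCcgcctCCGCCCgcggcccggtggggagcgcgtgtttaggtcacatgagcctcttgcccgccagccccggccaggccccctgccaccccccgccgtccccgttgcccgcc
Vegfc: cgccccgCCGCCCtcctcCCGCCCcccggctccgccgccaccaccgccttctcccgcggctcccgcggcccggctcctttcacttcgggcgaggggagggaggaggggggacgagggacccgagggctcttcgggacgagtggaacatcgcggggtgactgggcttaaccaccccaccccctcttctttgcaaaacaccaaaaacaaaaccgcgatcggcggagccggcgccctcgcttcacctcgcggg
Igf1: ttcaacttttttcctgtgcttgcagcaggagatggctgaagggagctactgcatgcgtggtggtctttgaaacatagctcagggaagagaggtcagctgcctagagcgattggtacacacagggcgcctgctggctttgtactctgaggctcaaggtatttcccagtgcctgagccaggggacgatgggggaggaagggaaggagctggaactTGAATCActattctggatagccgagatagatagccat

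The VEGF windows held 2 GC boxes in Vegfa, 4 in Vegfb and 2 in Vegfc, and Igf1 held none but 1 AP-1 site. Fgf2, Fgf10 and Pdgfa had 1 GC box each, while Fgf7, Pdgfc and Hgf had none. A GC box occurred in 53.3% and an AP-1 site in 5.08% of the 14744 windows of tested genes. Upstream GC content was 76.4% in Vegfb, 71.6% in Vegfc, 59.2% in Vegfa and 52.8% in Igf1, against a median of 58.8% over those windows, and was lowest among the members in Fgf7 at 43.6%. The first 50 transcribed bases, the cap-proximal end of the leader, were 76% GC in Vegfa and in Pdgfc, 70% in Vegfb and Pdgfa, 64% in Vegfc and Fgf2, 58% in Fgf10, 56% in Fgf7, 54% in Hgf and 50% in Igf1, against a median of 64%. Vegfa, Pdgfa and Hgf had a second annotated window, and the values given for these genes are those of the first. An E-box (CACGTG, in 7.81% of windows of tested genes) and a TATA box (TATAAA, 7.58%) were searched for on both strands too and matched no member, and the hypoxia response core ACGTG, which lies within the E-box (20.2%), matched the second window of Vegfa only. The motifs were chosen with the fits known, and a match is a match of letters only.

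Values are log2 intensities, so a difference of 1 is a doubling. The targeted gene Eif4e read 9.10, 8.84 and 9.21 in total RNA of Het transformed cultures, against 9.80, 9.67 and 9.40 in WT transformed cultures. In untransformed cells it read 8.69, 8.88 and 8.83 in Het and 9.21, 9.05 and 9.03 in WT cultures. In total RNA the genotypes did not overlap in either state, with Het minus WT at -0.57 in transformed and -0.30 in untransformed cells. Het cultures were lower without overlap for 4.44% of tested genes in transformed and 5.87% in untransformed cells. Polysomal Eif4e overlapped between the genotypes in both states, with Het minus WT at -0.53 and -0.21. The deleted part of the gene, and so whether the probe set lies in it, is not given in the sources used here. Total RNA arrays averaged 7.47 to 7.50 and polysomal arrays 3.78 to 3.79, which means that the fractions have no common scale. Arrays of a fraction had a median correlation with each other of 0.960 to 0.977 (total) and 0.900 to 0.942 (polysomal), and 2 polysomal arrays, those of WT embryo 1 untransformed and WT embryo 3 transformed, had the lowest spread over probe sets of their states (SD 1.15 and 1.25). Among 11 fibroblast markers, 9 in transformed and 10 in untransformed cells exceeded the array's 40th percentile in most cultures in total RNA, and Lum did so in neither state. The mean of these markers per culture was 8.46 to 9.92 in transformed cells and 10.10 to 10.43 in untransformed cells, without overlap. The means of 7 leukocyte markers (6.50 to 7.04 in transformed, 7.29 to 7.67 in untransformed cells) and of 5 skeletal muscle markers (7.29 to 7.50 and 7.83 to 8.03) did not overlap either. These differences in markers stand beside every transformation effect below, and their part in them was not tested. As a guide to readings of genes of other adult tissues, such as Alb and Prl, 95% of the transformed values of 16 such genes lay below 7.83. This level is above the mean of the total RNA arrays and their 40th percentile (6.80 to 6.93), so values below it are not all at the low end. The highest of the 16 genes, Cela1, averaged 7.84 in transformed cells, and its total RNA rose with transformation by 0.70 (limma, adjusted p = 0.00143). Where all 6 transformed cultures of a gene lay below 7.83, its log2 difference is that of the measured values. Its fold is then given as a lower bound with the transformed cultures set to 7.83.

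Total RNA of 6 of the 10 growth factors fell with transformation, and none rose. The calls were Vegfc, Igf1, Hgf, Pdgfc, Fgf2 and Vegfa (limma, Benjamini-Hochberg adjusted p under 0.05 over all 14830 genes, with embryo as a block), and of all tested genes 15.8% fell and 15.0% rose in the same comparison. The median difference was -0.74 over the members and 0.03 over all tested genes. In bulk RNA, fewer cells of a type and less RNA per cell cannot be told apart. The 6 members remained called in each of the 6 fits that left out 1 embryo.

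**Figure D1:**
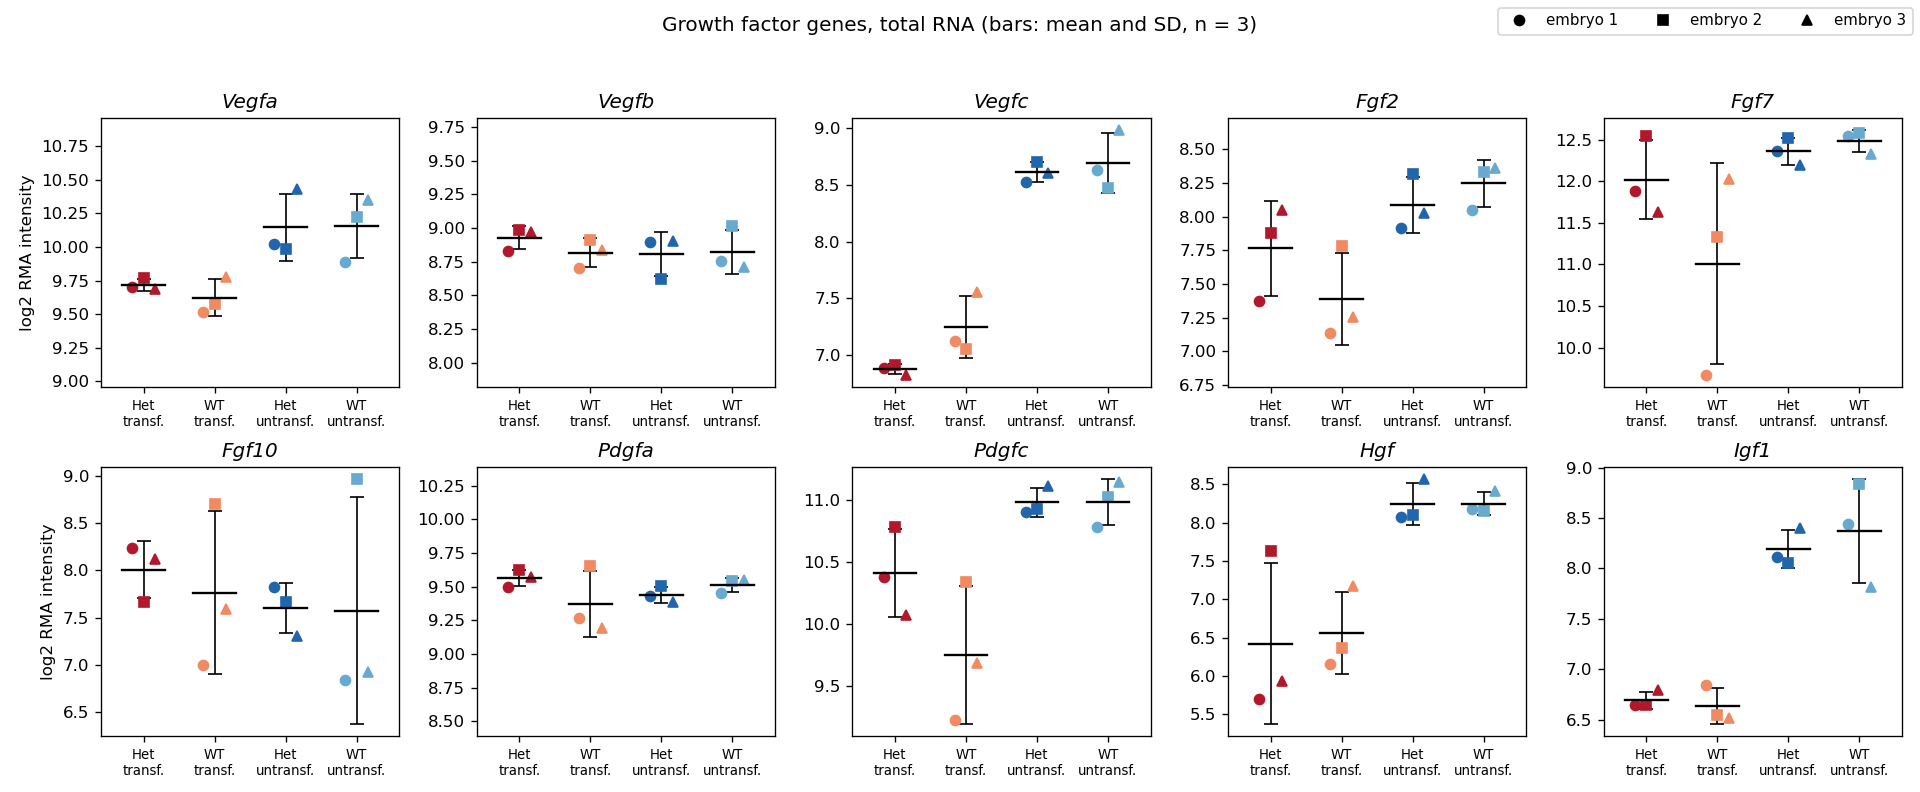
Log2 RMA intensity of the 10 growth factor genes in total RNA, 1 panel per gene with its own vertical axis, for Het and WT cultures of each state; points are cultures, with a symbol per embryo, and bars are mean and SD of 3. Vegfa, Vegfc, Hgf and Igf1 were lower in all 6 transformed cultures than in any untransformed one, while Vegfb and Pdgfa overlapped between the states.

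Among the VEGFs, Vegfc, the ligand of lymphatic endothelium (probe set 10571788, gene at chr8:54077532-54186454), changed most. It read 6.89, 6.91 and 6.82 in Het and 7.12, 7.05 and 7.56 in WT transformed cultures, against 8.53, 8.70 and 8.61 in Het and 8.63, 8.47 and 8.98 in WT untransformed cultures. The states did not overlap, and the difference of -1.60 ± 0.05 (SE, 6 embryos) had an adjusted p of 1.66e-05. All 6 transformed cultures were below 7.83, so Vegfc was at least 1.77-fold lower. Vegfa, the main angiogenic VEGF (10451198, chr17:46016993-46032377), read 9.70, 9.77 and 9.68 in Het and 9.51, 9.58 and 9.78 in WT transformed cultures, against 10.02, 9.98 and 10.43 in Het and 9.89, 10.22 and 10.35 in WT untransformed cultures. All 6 embryos were lower after transformation, and the difference was -0.48 ± 0.08 (1.39-fold lower, adjusted p = 0.00592). Vegfb, a ligand of the receptor Flt1 (10465559, chr19:6982472-6987651), lay between 8.70 and 8.98 in transformed and between 8.62 and 9.01 in untransformed cultures. Its difference was 0.06 with a 95% interval of -0.11 to 0.22 (adjusted p = 0.591).

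Of the FGFs, Fgf2, a broadly acting mitogen without a classical signal peptide (10491699, chr3:37348477-37410106), read 7.37, 7.88 and 8.05 in Het and 7.13, 7.78 and 7.25 in WT transformed cultures, against 7.91, 8.32 and 8.03 in Het and 8.05, 8.33 and 8.36 in WT untransformed cultures. It was lower in 5 of 6 embryos, with a difference of -0.59 ± 0.10 (1.50-fold lower, adjusted p = 0.00585), and 4 of its 6 transformed cultures were below 7.83. Without the 2 cultures with the narrowest polysomal arrays, which leaves 4 embryos with both states, the difference was -0.44 and the call was lost. The WT part of each transformation fit without these 2 cultures rests on WT embryo 2 alone. Their total RNA arrays were not narrow (SD 1.78 each), so in total RNA this omission is no check on array quality. Fgf7, also called keratinocyte growth factor (10475643, chr2:126034658-126091185), read 11.88, 12.55 and 11.63 in Het and 9.67, 11.33 and 12.03 in WT transformed cultures, against 12.36, 12.52 and 12.20 in Het and 12.54, 12.57 and 12.33 in WT untransformed cultures. WT embryo 1 stood lowest after transformation at 9.67, with WT embryo 2 next at 11.33, and the mean difference of -0.91 ± 0.30 did not pass (adjusted p = 0.0589). Fgf7 passed without WT embryo 3 (-1.20, adjusted p = 0.0110) and with array weights, and its difference was -0.79 without the 2 narrow cultures. Fgf10, a mesenchymal ligand for epithelial budding (10407350, chr13:118714699-118792573), differed more between embryos than between states: WT embryo 2 read 8.70 transformed and 8.96 untransformed, while the other WT cultures read 7.00 and 7.59 transformed and 6.84 and 6.92 untransformed. Its transformation difference was 0.30 (adjusted p = 0.164).

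Of the 2 PDGF genes, Pdgfc fell and Pdgfa did not pass. Pdgfc (10492689, chr3:81036416-81214040), whose product is cut outside the cell before it binds its receptor, read 10.38, 10.79 and 10.08 in Het and 9.23, 10.34 and 9.69 in WT transformed cultures, against 10.90, 10.93 and 11.11 in Het and 10.78, 11.03 and 11.14 in WT untransformed cultures. All 6 embryos were lower, with a mean difference of -0.90 ± 0.15 (1.87-fold lower, adjusted p = 0.00532). The call was lost without the 2 narrow cultures (-0.63), where WT embryo 2 is the only WT embryo with both states. Pdgfa (10535043, chr5:138976014-139000792), an autocrine mitogen of mesenchymal cells, lay between 9.19 and 9.65 in transformed and between 9.39 and 9.55 in untransformed cultures. Its difference was -0.01 with a 95% interval of -0.17 to 0.16 (adjusted p = 0.946).

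Hgf and Igf1 were the other members with large differences. Hgf, the ligand of the receptor Met (10519857, chr5:16553495-16619439), read 5.70, 7.62 and 5.94 in Het and 6.16, 6.36 and 7.17 in WT transformed cultures, against 8.07, 8.10 and 8.56 in Het and 8.17, 8.15 and 8.42 in WT untransformed cultures. The states did not overlap, though Het embryo 2 stayed highest among the transformed cultures, and the difference was -1.75 ± 0.28 (adjusted p = 0.00437). With all 6 transformed cultures below 7.83, Hgf was at least 1.33-fold lower. Igf1, the ligand of Igf1r (10365559, chr10:87858265-87937047), read 6.64, 6.65 and 6.79 in Het and 6.84, 6.54 and 6.52 in WT transformed cultures, against 8.11, 8.05 and 8.41 in Het and 8.45, 8.84 and 7.82 in WT untransformed cultures. Here too the states did not overlap, and the difference was -1.62 ± 0.12 (adjusted p = 0.000357). Its transformed cultures too were all below 7.83, and Igf1 was at least 1.36-fold lower. Vegfc, Vegfa, Pdgfc, Hgf and Igf1 were lower in all 6 embryos, a pattern that 15.4% of tested genes showed.

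In polysomal RNA 4 members fell with transformation, Fgf7, Vegfc, Pdgfc and Vegfa, and none rose; of tested genes 4.05% fell and 3.67% rose. Polysomal Fgf7 read 6.71, 7.85 and 5.78 in Het and 3.27, 5.17 and 5.44 in WT transformed cultures, against 7.26, 7.62 and 6.84 in Het and 7.28, 7.27 and 7.70 in WT untransformed cultures. The WT transformed cultures were all below every other culture, and the difference over 6 embryos was -1.63 ± 0.28 (3.09-fold lower, adjusted p = 0.0132). WT embryo 1 had the largest drop (-4.01). Its 3.27 stood at percentile 38.8 of its array, within the 2.65 to 4.02 of genes of other adult tissues. Lower bounds were used for total RNA only, so this fold is that of the measured values. Polysomal Pdgfc fell by 1.20 (adjusted p = 0.0218), Vegfc by 0.74 (adjusted p = 0.0180) and Vegfa by 0.65 (adjusted p = 0.0414). Fgf2 (-0.995, adjusted p = 0.0599), Igf1 (-0.68, adjusted p = 0.0615) and Hgf (-0.50, adjusted p = 0.0840) did not pass. Vegfb, Pdgfa and Fgf10 had differences of 0.16, 0.40 and -0.06 and did not pass either. Vegfa, Vegfc, Fgf2, Pdgfc and Hgf were lower in all 6 embryos, as were 6.74% of tested genes. The polysomal calls rest on few cultures: 0 members passed without Het embryo 1 or Het embryo 3, 1 without Het embryo 2, 2 without WT embryo 1 or WT embryo 2, and 8 without WT embryo 3, of which 7 were lower and 1, Pdgfa, was higher (0.53, adjusted p = 0.0268). Without the 2 narrow cultures 3 passed, Fgf7, Vegfc and Igf1.

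**Figure D2:**
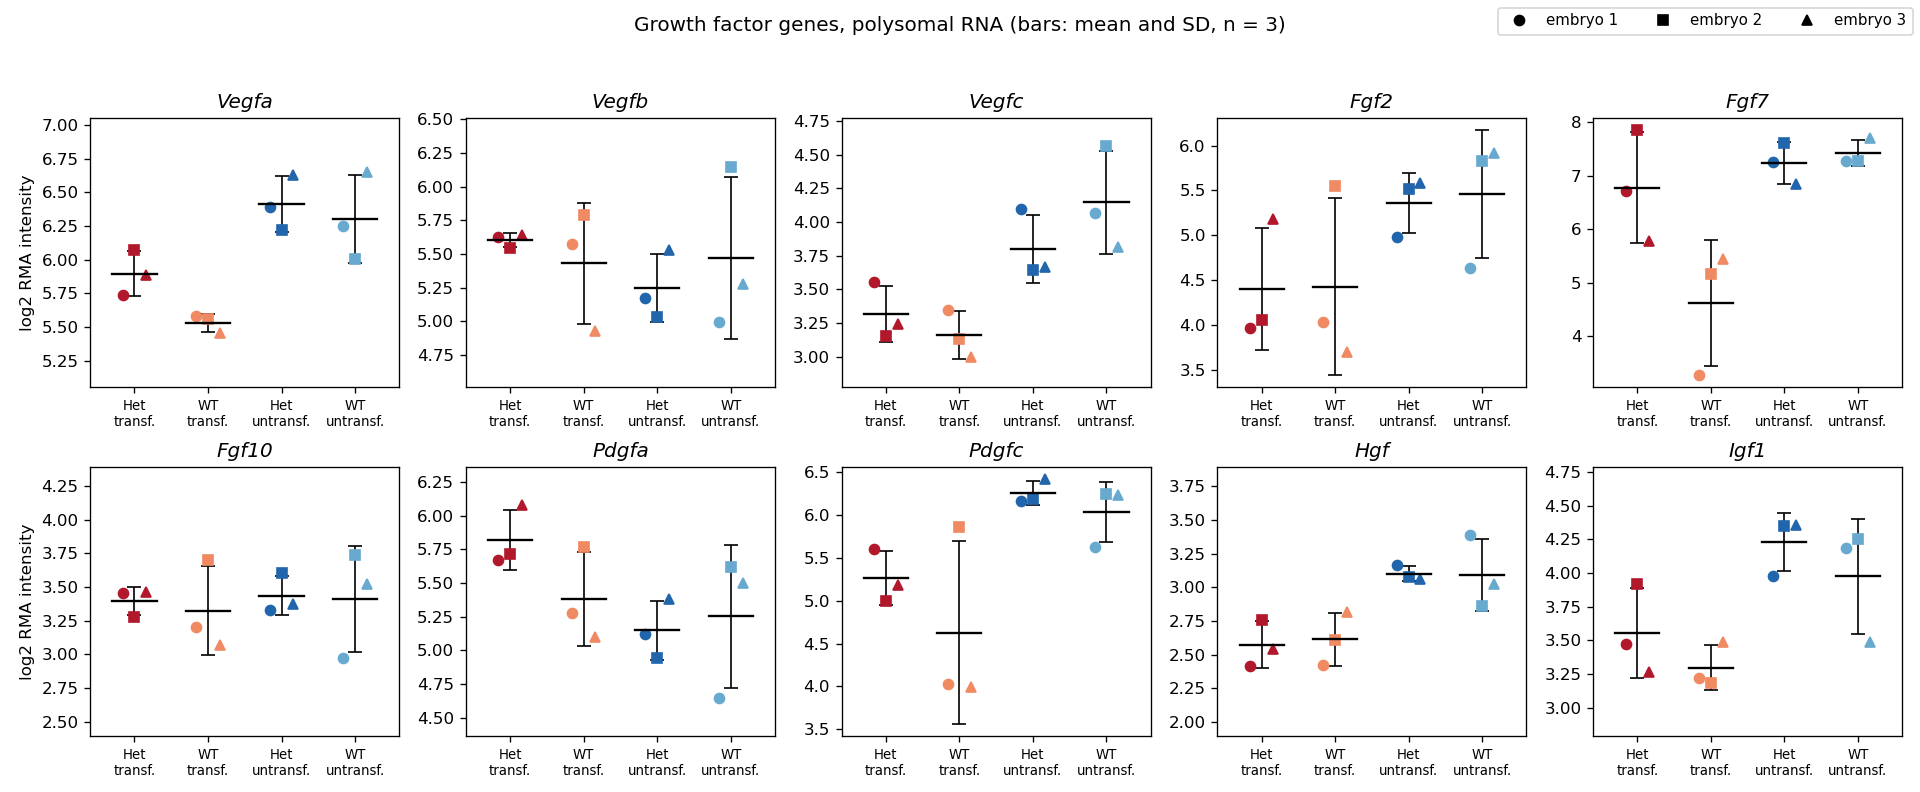
Log2 RMA intensity of the same genes in polysomal RNA, 1 panel per gene with its own vertical axis; points are cultures, with a symbol per embryo, and bars are mean and SD of 3. Fgf7 read 3.27 to 5.44 in WT transformed cultures, below the 5.78 to 7.85 of Het transformed cultures, and Hgf read at most 3.39 in every culture.

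Translational efficiency (TE), the log2 polysomal minus the log2 total value of the same culture, rose with transformation for Igf1, Vegfc and Hgf, and fell for none; of tested genes 1.81% rose and 0.971% fell. Igf1 TE was -3.17, -2.73 and -3.53 in Het and -3.62, -3.36 and -3.03 in WT transformed cultures, against -4.13, -3.70 and -4.05 in Het and -4.26, -4.59 and -4.34 in WT untransformed cultures. It was higher in 6 of 6 embryos, by 0.94 ± 0.15 (adjusted p = 0.0158). Hgf TE was also higher in 6 of 6 embryos, by 1.25 ± 0.24 (adjusted p = 0.0290), and Vegfc TE in 5 of 6, by 0.86 ± 0.15 (adjusted p = 0.0214). Among all tested genes 6.53% were higher in every embryo. In each of the 3 genes the total RNA value dropped further than the polysomal one: Igf1 differed by -1.62 in total and -0.68 in polysomal RNA, Hgf by -1.75 and -0.50, and Vegfc by -1.60 and -0.74. In transformed cultures polysomal Vegfc read 3.00 to 3.55, Hgf 2.41 to 2.81 and Igf1 3.18 to 3.92, and the 40th percentile of polysomal arrays was 3.13 to 3.32. In the same cultures the middle 90% of polysomal values of the 16 genes of other adult tissues ran between 2.65 and 4.02. Among all genes of a polysomal array, transformed cultures stood at percentiles 8.4 to 15.9 for Hgf, 24.0 to 50.9 for Vegfc and 36.6 to 62.2 for Igf1. In their total RNA these percentiles were 11.7 to 53.9 for Hgf, 33.5 to 52.5 for Vegfc and 28.0 to 35.4 for Igf1. Only polysomal Hgf was thus at the low end in every transformed culture, and what part low values have in the TE differences was not tested. Polysomal arrays also had a narrower spread over probe sets (SD 1.15 to 1.44) than total RNA arrays (SD 1.71 to 1.81). A change of equal rank can thus read smaller in polysomal RNA, and the part of this in the TE differences was not tested.

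None of the 3 TE calls held under every omission of an embryo. The Igf1 call was kept only without WT embryo 1 or WT embryo 3 (adjusted p up to 0.0889 otherwise), that of Hgf only without Het embryo 2 or WT embryo 3 (up to 0.144) and that of Vegfc only without WT embryo 2 or WT embryo 3 (up to 0.124). Without the 2 narrow cultures Igf1 and Hgf passed, and Vegfc had 0.62 (adjusted p = 0.120). Fgf7 TE differed by -0.72 (adjusted p = 0.0774) and was called lower without WT embryo 3 (-0.56, adjusted p = 0.0447), with array weights (-0.57, adjusted p = 0.0353) and with quantile normalisation (-0.79, adjusted p = 0.0298). The other members did not pass in TE: Pdgfa had 0.41, Vegfb 0.10, Vegfa -0.17, Pdgfc -0.30, Fgf10 -0.36 and Fgf2 -0.41.

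**Figure D3:**
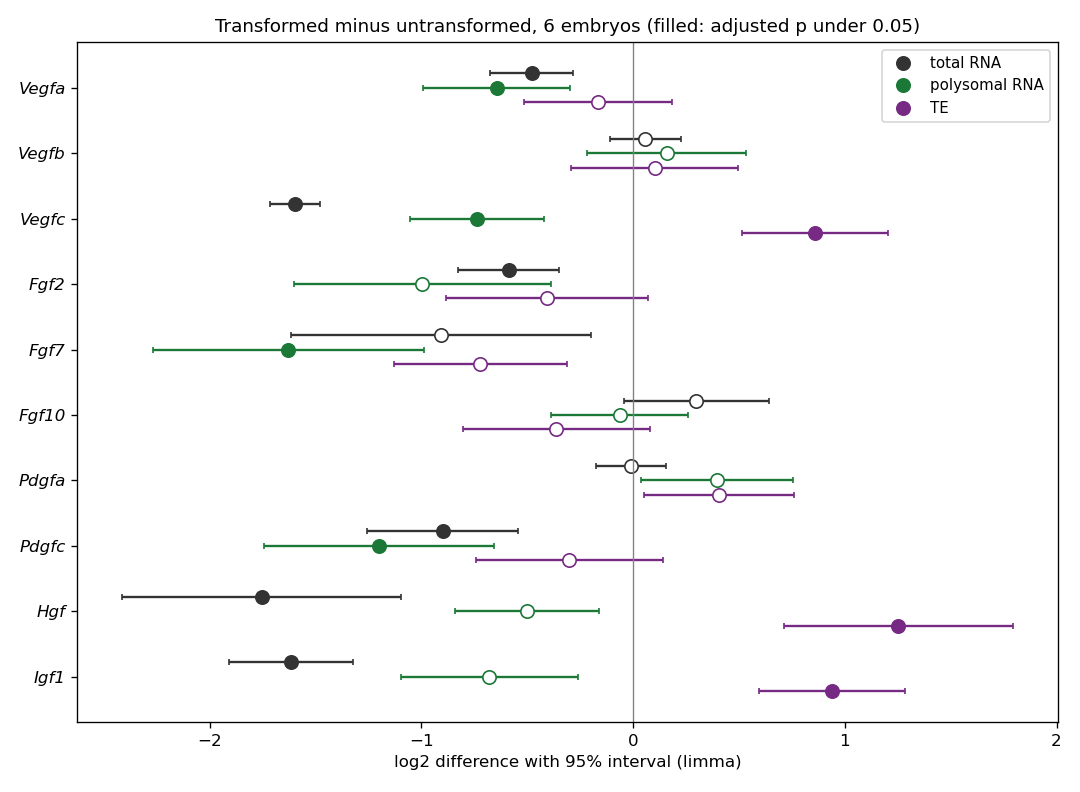
Transformed minus untransformed log2 difference of each growth factor in total RNA, polysomal RNA and TE over 6 embryos, with the 95% interval from limma; filled points passed at an adjusted p under 0.05. Igf1, Vegfc and Hgf lie left of 0 in total RNA and right of 0 in TE, and Vegfb and Pdgfa lie near 0 in total RNA.

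The question set by the genotype is whether a lower Eif4e dose alters these mRNAs, and none of the 10 members passed in any Het against WT comparison of total RNA, polysomal RNA or TE in limma. Over all tested genes 0.0472% were called in total RNA of transformed cells, and 0.0% in each of the other comparisons; in TE of transformed cells 430 genes (2.9%) had an unadjusted p under 0.05, among them 1 member, Fgf7, and in TE of untransformed cells 215 (1.45%) did, with 0 members. By the same count, total RNA of transformed cells held 2 members (Vegfc and Pdgfc) beside 9.3% of genes, polysomal RNA of transformed cells 1 (Fgf7) beside 3.22%, and untransformed cells 0 beside 2.37% in total and 1.67% in polysomal RNA. Over the mean TE of both states 1 member (Fgf7) did, beside 2.7%. The median Het minus WT difference in TE was 0.15 over the members in transformed cells, against -0.02 over all tested genes, and 0.01 against 0.03 in untransformed cells. The 95% intervals of the members reached 0.43 to 0.85 to either side, median 0.62, so smaller differences in TE were not detectable at this precision. Larger ones need not pass either, since these intervals are not adjusted for the number of genes tested. Fgf7 TE differed by 1.14 in transformed cells and did not pass. With 3 cultures against 3, an exact permutation test cannot go below 0.1.

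Members whose genotypes did not overlap were few. In TE of transformed cells these were Vegfc and Fgf7, both higher in Het, as were 3.82% of tested genes. Vegfc TE was -3.33, -3.76 and -3.58 in Het against -3.77, -3.92 and -4.56 in WT transformed cultures. Its total RNA was lower in Het without overlap (6.87 ± 0.04 against 7.24 ± 0.27, SD, n = 3 each), as were the 4.44% of tested genes given above. Polysomal Vegfc overlapped between the genotypes. Het minus WT was 0.53 in TE, -0.37 in total and 0.16 in polysomal RNA, so the TE and total RNA separations are not independent. All transformed total RNA values of Vegfc were below 7.83, and its polysomal values lay within the 2.65 to 4.02 of genes of other adult tissues. The TE of -4.56 is that of WT embryo 3, whose polysomal array was narrow. In polysomal RNA of transformed cells Vegfa and Fgf7 were higher in Het, as were 4.14% of genes. Polysomal Vegfa was 5.89 ± 0.17 in Het and 5.53 ± 0.07 in WT transformed cultures. In untransformed cells Igf1 TE was -3.96 ± 0.23 in Het and -4.39 ± 0.17 in WT, and Pdgfc TE was -4.73 ± 0.03 in Het and -4.95 ± 0.19 in WT; 2.89% of genes were higher there without overlap. Each of these shares is for 1 direction of 1 comparison, the direction in which a member separated. Both directions were looked at in total RNA, polysomal RNA and TE of each state. Separations of the same gene in these measures share values, so the shares are no test of the list.

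**Figure D4:**
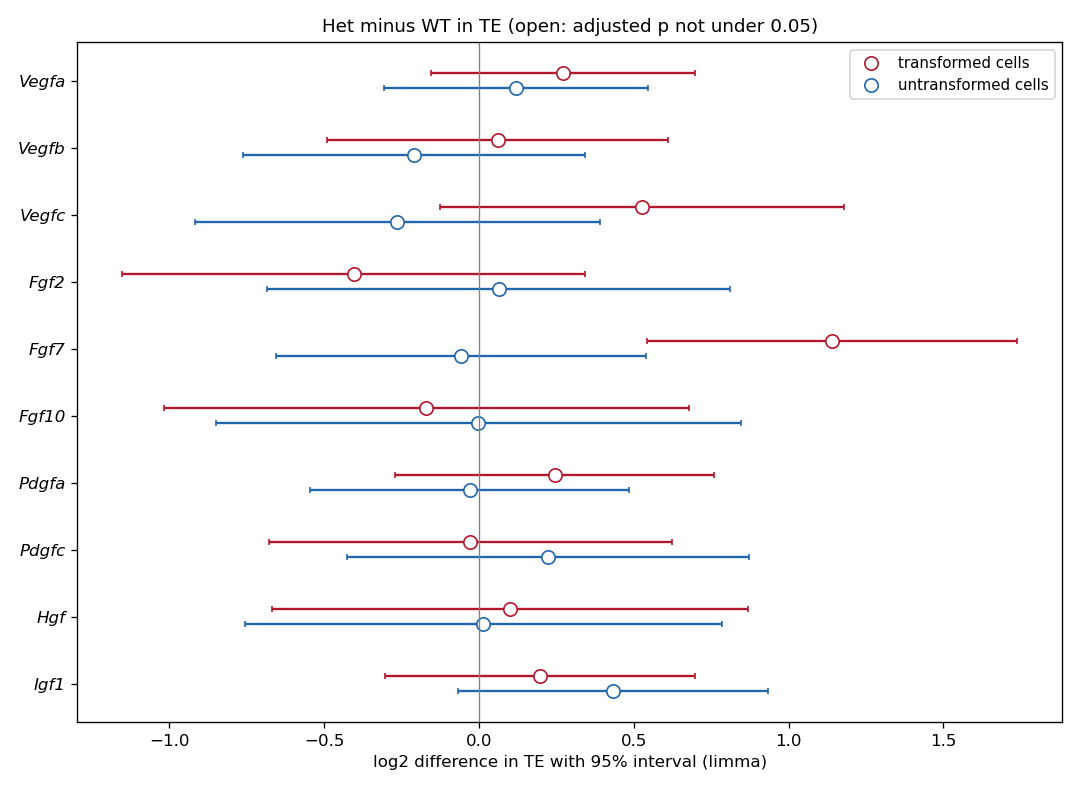
Het minus WT log2 difference in TE of each growth factor in transformed and untransformed cells, with the 95% interval from limma; no point passed at an adjusted p under 0.05. The interval of Fgf7 in transformed cells, 0.54 to 1.74, lies right of 0, and every other interval includes 0.

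Fgf7 had the smallest unadjusted p of the members in TE and polysomal RNA of transformed cells. Its polysomal level averaged 6.78 ± 1.04 in Het and 4.63 ± 1.18 in WT transformed cultures (SD, n = 3 each), a difference of 2.15 ± 0.55 (SE) with an unadjusted limma p of 0.00193 and an adjusted p of 0.9999. Total RNA averaged 12.02 ± 0.47 in Het and 11.01 ± 1.21 in WT transformed cultures, and TE was -5.17, -4.70 and -5.85 in Het and -6.40, -6.16 and -6.59 in WT. WT embryo 1 carried much of the difference in total RNA, which was 1.01 with it and 0.34 without it. The polysomal difference was 1.48 and the TE difference 1.13 without that embryo. Over the 6 fits that left out 1 embryo, the TE difference ran from 0.87 to 1.45 and the polysomal difference from 1.48 to 2.65. The lowest TE, -6.59, is that of WT embryo 3, whose polysomal array was narrow. In untransformed cells the polysomal difference was -0.18. The response to transformation in polysomal RNA averaged -0.46 in Het and -2.79 in WT embryos, and the test of that difference gave 2.33 (unadjusted p = 0.00297, adjusted p = 0.9996, limma), with 314 genes (2.12%) at an unadjusted p under 0.05. No member passed in any such test of a different response. At an unadjusted p under 0.05 stood Fgf7 and Vegfc in TE, beside 1.95% of genes, and Vegfc and Fgf2 in total RNA, beside 4.88%.

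The partners of these ligands are given for lists of known members of the pathways, as counts in total RNA with transformation, to be read beside the 15.0% of all tested genes that rose and the 15.8% that fell. Of 24 tested receptors and coreceptors, 13 fell and 2 rose, with a median of -0.53. Nrp1, a coreceptor of VEGFs, was 8.55, 9.41 and 10.18 (lowest, median and highest) in transformed and 10.97, 11.43 and 11.57 in untransformed cultures, a difference of -2.01 (adjusted p = 0.000120). Flt1, a VEGF receptor, differed by -2.24, and Fgfr2, whose epithelial form binds Fgf7 and Fgf10, by -1.51 (adjusted p = 0.000414 each), with all 6 transformed cultures of Fgfr2 below 7.83. Met, the receptor of Hgf, rose by 0.85 (adjusted p = 0.0108): it was 9.70, 10.10 and 10.58 in transformed and 8.96, 9.27 and 9.51 in untransformed cultures. Insr, the insulin receptor, rose by 0.34. In polysomal RNA 9 receptors fell, including Flt1 (-1.33), Nrp1 (-2.52) and Sdc2 (-1.31), and none rose. Of all tested genes 4.05% fell and 3.67% rose there. In TE Pdgfrb (0.75) and Flt1 (0.90) rose and none fell, beside 1.81% and 0.971% of all tested genes. Total RNA of both had fallen.

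Of 20 other ligands of the families tested, 2 fell and none rose in total RNA, where 15.8% of all tested genes fell and 15.0% rose, so the share of the list was no higher than that of all genes. Igf2, the fetal insulin-like growth factor, was 7.35, 7.65 and 8.54 in transformed and 10.30, 10.70 and 10.88 in untransformed cultures (-2.82, adjusted p = 0.000171), and Pdgfd differed by -1.41. Among 12 IGF binding proteins and their regulators, 3 rose and 5 fell. Igfbp3, the main carrier of IGFs in blood, was 8.13, 9.85 and 11.48 in transformed and 7.38, 7.84 and 8.56 in untransformed cultures (1.88, adjusted p = 0.0158), and Stc1 and Stc2, inhibitors of the protease Pappa, rose by 1.38 and 0.61. Pappa, which releases IGF from its binding proteins, fell by 3.19 on the log2 scale (adjusted p = 0.000315), and Igfbp5 and Igfbp7 differed by -1.65 and -2.12. Of their 6 transformed cultures, 4 of Igf2, 4 of Pappa and all of Igfbp5 were below 7.83. In TE Igfbp5 (1.29) and Pappa (1.42) rose and Igfbp7 (-1.06) and Stc1 (-1.14) fell, beside 1.81% and 0.971% of all tested genes.

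Of 11 genes of growth factor activation and release, 3 rose and 2 fell in total RNA, and the number that fell is near the 15.8% of all tested genes. Plau, the urokinase that activates Hgf and other matrix-bound factors, rose by 1.34 (adjusted p = 0.000728), St14 by 0.37 and Spint2 by 0.26, and Furin (-0.63) and Hspg2 (-0.58) fell. Of 15 feedback inhibitors and readout genes of FGF and ERK signalling, 7 rose and 2 fell, with a median of 0.48. Etv1, an ETS factor downstream of FGF and ERK, was 8.29, 9.91 and 10.45 in transformed and 7.25, 7.60 and 8.34 in untransformed cultures (2.01, adjusted p = 0.00123), Etv5 rose by 0.74 and Etv4 by 0.51, while Spry1 (-0.63) and Il17rd (-0.31) fell. No gene of these lists passed in any genotype comparison.

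The gene most like each member across the 12 total RNA arrays, by Pearson correlation over all tested genes, is given as a description. These arrays share the difference between the states, so a second value is the correlation after group means were taken out. The highest were Acbd3 for Hgf (0.99, then 0.96), Kcnmb1 for Vegfc (0.99, then 0.82), Rnf113a2 for Fgf7 (0.98, then 0.99), Rgs4 for Igf1 (0.98, then 0.86) and Foxn3 for Pdgfc (0.98, then 0.94). Adcy4 was most like Fgf2 (0.96, then 0.93), Zfpl1 most like Vegfa (0.95, then 0.89) and Cdh6 most like Pdgfa (0.94, then 0.92). The best for Vegfb and Fgf10 were Cic (0.85, then 0.87) and Acaa1a (0.81, then 0.86).

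Markers of other cell types were mixed in total RNA. Of 7 endothelial markers, 2 in transformed and 3 in untransformed cells exceeded the 40th percentile in most cultures, and Pecam1, Cdh5 and Tek did so in neither state. Of 7 leukocyte markers 2 did so in transformed and 4 in untransformed cells. Lyz2 read 5.35, 5.78 and 6.33 (lowest, median and highest) in transformed and 9.32, 9.70 and 10.50 in untransformed cultures, Cd68 was the highest in transformed cells with a mean of 9.22, and Adgre1 and Cd52 were low in both states. Of 7 epithelial markers 5 did so in each state, with Krt18 highest in transformed cells at 10.10, while Epcam and Cdh1 were low in both. Skeletal muscle markers did so for 3 of 5 in transformed and 4 of 5 in untransformed cells, where Acta1 averaged 9.99 and Myog was low. Neural markers did so for 5 of 6 in transformed cells, where Sox2 averaged 9.18, and for 3 of 6 in untransformed cells, where Tubb3 averaged 10.31. Cartilage markers did so for 2 of 5 and adipocyte markers for 2 of the 4 measured in each state. Of the 16 genes of other adult tissues, 6 in transformed and 7 in untransformed cells exceeded this percentile too.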

How the data were processed

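The 24 arrays were Affymetrix Mouse Gene 1.0 ST, hybridised with NuGEN-amplified RNA, per the labels' protocols. Polysomal RNA came from cells treated with 100 µg/ml cycloheximide, per the labels' protocols. The deposited values were log2 intensities made by the authors with RMA, per the series description and the submitters' processing notes; the sources used here give neither its version nor the genome build, and 0 sample columns were left unused. Of 25668 probe sets, 20777 had 1 gene symbol in the platform annotation, 232 several and 4659 none; the last 2 classes were not analysed. The brightest probe set stood for each of the 564 genes with several. A gene was tested if it exceeded the 40th percentile of an array on 3 or more arrays. Gene positions and promoter windows are those of RefSeq on GRCm38.p6.

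Differences were tested with limma 3.58.1 in R 4.3.3, with Benjamini-Hochberg adjustment over all 14830 genes. Genotype effects came from 4 group means over 12 cultures, and transformation effects and their difference between genotypes from fits with embryo as a block, since the labels match both states by embryo. Deviations of the states of an embryo correlated between -0.06 and 0.22 in total RNA, -0.44 and 0.06 in polysomal RNA and -0.41 and 0.10 in TE, so the block rests on the labels. The code of the fits was run on simulated data with independent noise. These data held no embryo effects and no narrow arrays, so the run does not bear on how those affect the calls. The number of arrays limits the precision. Folds of genes whose 6 transformed total RNA values all lay within the range of genes of other adult tissues (95th percentile) are lower bounds, a rule added after seeing the data.

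The members and the gene lists were chosen with earlier results of these data known. Named besides the 10 members were, per list, comparison and direction, at most the 3 called genes with the smallest p, Eif4e and the most similar gene of each member; markers and genes of small counts were named for the counts they explain. Alternatives tried were quantile normalisation, other filters on low values, the mean of probe sets, trend and robust settings, array weights, fits with and without a block, each state or genotype alone, leaving out each embryo, and leaving out the 2 cultures with the narrowest polysomal arrays, the last chosen after seeing the data.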

Additional observations from a re-analysis of the deposited data

Results flagged for a closer look

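In total RNA, the Igf1 difference between transformed and untransformed cells was -2.30 in WT embryo 2, against -1.61 in the nearest of the other 5 embryos, a gap large for the range of the 6. Its untransformed culture read 8.84, the highest of all cultures, and its transformed culture read 6.54. This test was applied to 30 groups of 6 values, and chance alone flags about 1 in 20 groups. Without that embryo Igf1 still passed.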

How the results depend on the processing

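No value of a growth factor that passed the test changed direction under any alternative. Counts over all tested genes moved more. In total RNA of transformed cells the 7 genes called between Het and WT became 2 with the stricter filter, 16 with array weights, 15 with quantile normalisation, and 0 both with the 6 cultures of the state alone and with the replicate block by embryo number; leaving out 1 embryo gave 0 to 51. In polysomal RNA of transformed cells 0 became 2 with array weights, 1 with quantile normalisation and 2 with trend and robust settings, and 0 to 1 when an embryo was left out. The 4569 transformation calls in total RNA became 2115 in Het embryos alone and 2476 in WT embryos alone, and 2879 to 4634 when an embryo was left out. The 1145 in polysomal RNA became 2192 with array weights, 266 in Het embryos alone and 190 in WT embryos alone, and 306 to 2746 when an embryo was left out (2746 without WT embryo 3). The 413 in TE became 1320 with array weights, 660 with quantile normalisation, 44 in Het embryos alone, 104 in WT embryos alone and 714 without the replicate block by embryo, and 94 to 1540 when an embryo was left out (1540 without WT embryo 3). The cause was not tested. Without the replicate block 6 members passed in total RNA, 6 in polysomal RNA and 3 in TE. Het embryos alone gave 3, 0 and 0 members, and WT embryos alone 6, 1 and 0. The replicate block by embryo number changed no call of a member. Leaving out the 2 cultures with the narrowest polysomal arrays, chosen after seeing the data, gave 5, 3 and 2.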

Other observations

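Hypoxia-inducible genes, a group that includes regulators known to act on Vegfa, were counted in the same transformation comparison. Of 16 tested in total RNA, 5 rose and 3 fell, with a median of 0.07, beside 15.0% of all tested genes that rose and 15.8% that fell. Pdk1, which limits entry of pyruvate into the mitochondrion, read 8.56, 9.43 and 9.55 (lowest, median and highest) in transformed and 6.76, 7.32 and 7.93 in untransformed cultures, a difference of 1.91 (limma, adjusted p = 0.000620). Egln3, an oxygen-sensing hydroxylase, rose by 0.85 and Ankrd37 by 0.40. Adm, the vasodilator adrenomedullin, differed by -1.21, P4ha2 by -0.74 and Epas1, the transcription factor HIF-2 alpha, by -0.43, and these fell. Vegfa, itself a hypoxia target, fell by 0.48 in the same fit.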
